A study of Homo sapiens with 12 samples.

Results

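The genes described here are the G1 cyclins, their kinases, the kinase inhibitors and the retinoblastoma gene, measured in LNCaP cells given a FOXA1 plasmid. They are the D-type cyclins CCND1, CCND2 and CCND3, the kinases CDK4 and CDK6, the INK4 inhibitors CDKN2A, CDKN2C and CDKN2D, the CIP/KIP inhibitor CDKN1B, and RB1. Probes were taken where the platform annotation gave exactly that symbol, which gave 14 probes for 9 of the 10 genes, out of 30113 probes for 20046 genes with 1 symbol. CDKN2C had no probe under that symbol in the annotation used, so it has no intensities here, and only its promoter windows were searched.

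LNCaP is an androgen-responsive line grown from a lymph node metastasis of a prostate cancer, and FOXA1 is a forkhead factor that binds closed chromatin and prepares sites for the androgen receptor. The FoxA1 group is 6 arrays of LNCaP cells transfected with FoxA1 cDNA in the pcDNA3.1 plasmid, and the GFP group is 6 arrays of LNCaP cells given GFP in the same plasmid. In both groups Lipofectamine carried the plasmid, at 3 µM as the labels give it, the medium was RPMI with 10% serum, and cells were harvested 48 h later. The transfection was transient and of 1 line, the share of cells that took up plasmid is not given in the sources used here, and nothing in the labels ties replicates 1 to 6 to separate cultures. The p-values therefore cover array-to-array spread alone, which may be technical. In bulk RNA, fewer cells of a type and less RNA per cell cannot be told apart. Total RNA was read on Illumina bead arrays, and values are the authors' normalised log2 intensities, in which 1 unit is a doubling.

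In G1, D-type cyclins bind CDK4 or CDK6, and the active kinases phosphorylate the RB1 protein, which then releases E2F transcription factors that switch on S phase genes. INK4 proteins bind CDK4 and CDK6 and keep cyclin D away, while CDKN1B (p27Kip1) holds cyclin-CDK2 complexes inactive. In prostate cancer cells androgen signalling drives entry into S phase through this step, and loss of RB1 is known from late, androgen-independent disease.

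The arrays carried the luminal markers of LNCaP, and FOXA1 itself did not separate the groups. All 8 measured luminal markers, among them KLK3 and KLK2, stood above background on every array, background being the 95th percentile of 784 probes that only the non-normalized table holds, taken on each array before normalization. Above it on no array were 3 of 5 basal genes (KRT5, KRT14 and KRT15), 2 of 7 stromal genes (DCN and PDGFRB) and 2 of 6 leukocyte genes (CD3E and LYZ). ACTA2 was the 1 stromal marker above it on all arrays. The other basal, stromal and leukocyte genes with a probe were above it on some arrays but not on all. FOXA1 was 13.29, 13.29, 13.62, 13.53, 13.44 and 13.38 in FoxA1 arrays 1 to 6, against 13.35, 13.01, 13.23, 13.37, 13.48 and 13.34 in GFP arrays 1 to 6. The groups overlapped, and the difference of 0.13 (95% interval -0.07 to 0.32) did not pass the test (limma, adjusted p = 1.00). It was 0.07 without GFP 2 and 0.04 without FoxA1 3, FoxA1 4 and GFP 3 together. Whether the probe reads the plasmid's transcript is not given in the sources used here. FoxA1 3, FoxA1 4 and GFP 3 stood apart from the other arrays along the leading component of the spread within groups, which held 41.2% of it. They stood at 17.0, 22.6 and 28.2, and the other arrays between -13.7 and 8.67.

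Promoter sequences are shown for CDK4 and CDKN1B because the windows of these members matched a searched motif and the genes were read above background, a choice made after the matches were seen. They come from RefSeq (GRCh38.p14), whose table held 14 promoter windows for 8 of the 10 genes, all but CCND1 and CCND2, and each runs over the 250 bases before the annotated start, 5′ to 3′ on the gene's strand. Capitals mark the E-box CACGTG in CDK4 (chr12:57752311-57752560, minus strand) and the forkhead core TGTTTA in CDKN1B (chr12:12717118-12717367, plus strand).
CDK4: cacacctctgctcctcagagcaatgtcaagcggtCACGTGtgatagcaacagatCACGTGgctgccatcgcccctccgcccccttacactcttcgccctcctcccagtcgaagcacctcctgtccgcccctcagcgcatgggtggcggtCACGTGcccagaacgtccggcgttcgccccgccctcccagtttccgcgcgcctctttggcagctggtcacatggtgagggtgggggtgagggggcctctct
CDKN1B: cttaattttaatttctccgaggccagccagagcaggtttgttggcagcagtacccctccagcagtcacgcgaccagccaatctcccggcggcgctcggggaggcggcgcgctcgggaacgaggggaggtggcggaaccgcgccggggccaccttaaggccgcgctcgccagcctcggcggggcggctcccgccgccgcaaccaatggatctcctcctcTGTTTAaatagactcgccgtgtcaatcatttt
The CDK4 window held 3 E-boxes, 216, 196 and 101 bases before the start, and an E-box was in 3 of the 14 windows of these genes and in 6.34% of all 35116 windows of this length. The CDKN1B match began 32 bases before the start, and TGTTTA on either strand was in 2 of the 14 windows and in 11% of all windows. The other matches of both motifs were in windows of CDKN2C. The longer forkhead form TGTTTAC, which contains the shorter one, was in 0 of the 14 windows of these genes and in 2.98% of all windows. The letters TTTCCCGC and TTTGGCGC, known as E2F sites, were also in 0 of the 14, against 1.39% and 0.55% of all windows, both strands searched. The 1 RB1 window lies inside the gene, far downstream of its first annotated base, so the counts do not cover the promoter there. A match is a description of the letters and not of a bound site.

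Of the 9 measured genes, 7 were read above background on all 12 arrays by their brightest probe: CCND1, CCND3, CDK4, CDKN2A, CDKN2D, CDKN1B and RB1. The same 7 passed the filter, which kept probes with a mean intensity over 7.41, the median probe's mean. That cut lay below the background estimates after normalization, 7.62 to 7.71. Some genes counted as measured in the lists given later were therefore at background. CCND2 was above background on 1 array, FoxA1 5, and CDK6 on 0 arrays. CCND2 and CDK6 therefore have values from a fit on all 47317 complete probes, and their differences say little about the transcripts.

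No G1 regulator passed the test between FoxA1 and GFP arrays. With limma and Benjamini-Hochberg adjustment, 0 of the 9 measured genes passed an adjusted p of 0.05, where the background was 0 of 12420 genes (0%), and 0 of the 9 lay under an unadjusted p of 0.05, where 1.63% of all genes did. Of the 7 genes past the filter 6 had a higher and 1 a lower mean in FoxA1 arrays, with a median difference of 0.07, beside 53.8% higher and a median of 0.01 over all genes. The groups of arrays overlapped for all 9 genes, and 0.0644% of all genes had groups that did not. The 95% intervals of the 7 ran at their widest from 0.835-fold to 1.41-fold of GFP intensity, and none of these intervals reached 1.5-fold higher or lower.

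**Figure D1:**
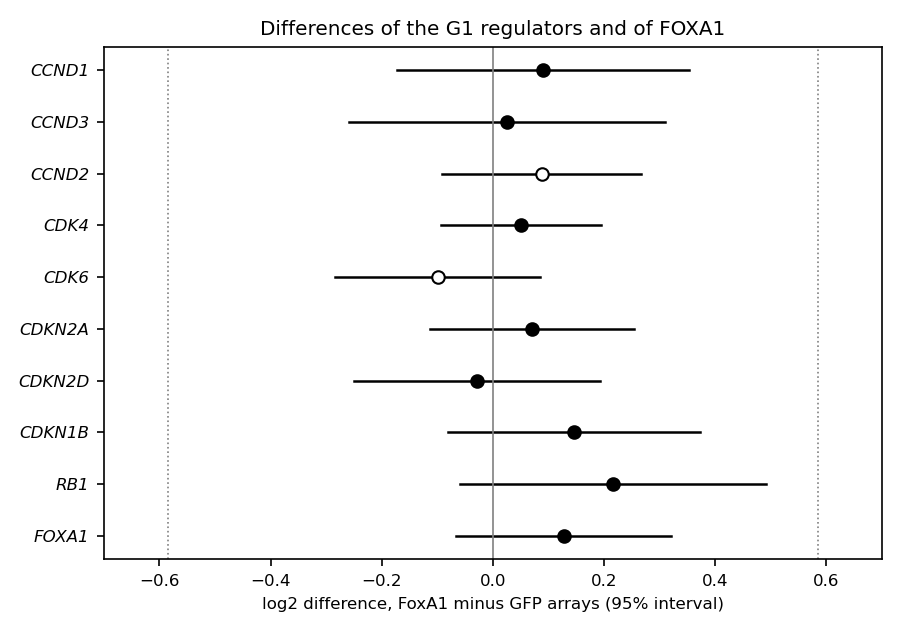
Log2 difference, FoxA1 minus GFP arrays (x axis), with 95% intervals for each gene (y axis), n = 6 arrays a group. Filled points come from the fit over 12420 genes, open points (CCND2, CDK6) from the fit on all probes, and dotted lines mark 1.5-fold. Every interval spans 0, and RB1 lies farthest to the right at 0.22.

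Among the D-type cyclins, which set the activity of CDK4 and CDK6, CCND1 and CCND3 were both read clearly and CCND2 was not. CCND1 was 12.48, 12.37, 12.93, 12.88, 12.48 and 12.57 in FoxA1 arrays 1 to 6, against 12.46, 12.35, 12.91, 12.28, 12.50 and 12.68 in GFP arrays 1 to 6. FoxA1 3, FoxA1 4 and GFP 3 were the high arrays, and the groups covered nearly the same range. The means were 12.62 ± 0.23 in FoxA1 arrays and 12.53 ± 0.23 in GFP arrays (SD, n = 6 each), which differed by 0.09 (standard error 0.12, limma, adjusted p = 1.00). The difference was 0.03 without FoxA1 3, 0.17 without GFP 3, and 0.02 without FoxA1 3, FoxA1 4 and GFP 3 together.

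CCND3, the D-type cyclin best known from lymphocytes, was 12.07, 11.99, 11.49, 12.01, 12.06 and 11.88 in FoxA1 arrays 1 to 6, against 11.87, 12.37, 11.52, 11.77, 12.05 and 11.76 in GFP arrays 1 to 6. The low arrays were those of replicate 3 in both groups and the highest was GFP 2. FoxA1 minus GFP was 0.03 (standard error 0.13, limma, adjusted p = 1.00), and it was -0.05 without GFP 3 and also below 0 without FoxA1 1, FoxA1 5 or GFP 6. The brighter CCND2 probe ranged from 7.20 to 7.69 in FoxA1 arrays and from 7.21 to 7.44 in GFP arrays, a difference of 0.09 (standard error 0.09). The other CCND2 probe was above background on 0 arrays.

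**Figure D2:**
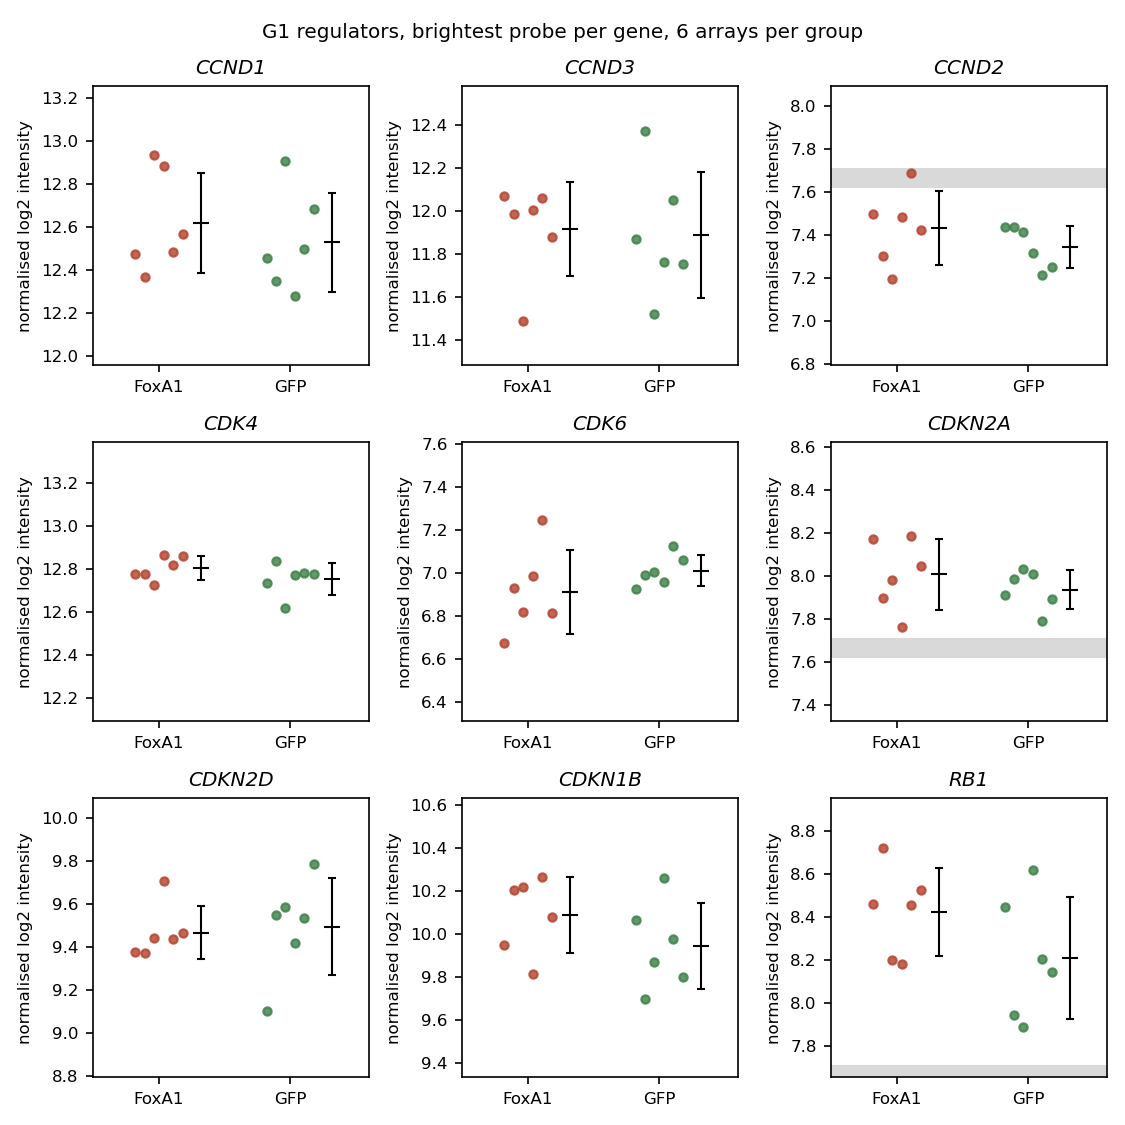
Normalised log2 intensity (y axis) of the brightest probe of each gene in the 6 FoxA1 and 6 GFP arrays (points, in order of replicate number) with mean and SD beside them. Each panel spans the same 1.3 log2 units, and the grey band covers the background estimates of the 12 arrays after normalization, from 7.62 to 7.71. CDK4 is the steadiest gene, and CCND2 and CDK6 lie in or below the band.

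The kinase CDK4 was the steadiest of the genes. It was 12.78, 12.78, 12.73, 12.86, 12.82 and 12.86 in FoxA1 arrays 1 to 6, against 12.74, 12.84, 12.62, 12.77, 12.78 and 12.78 in GFP arrays 1 to 6. GFP 3 was the lowest array and the groups overlapped. The whole span over 12 arrays was 1.19-fold, and the SD within groups of 0.06 was smaller than that of all but 0.282% of the 12420 genes. FoxA1 minus GFP was 0.05 (standard error 0.07, limma, adjusted p = 1.00). CDK6, its close relative, ranged from 6.67 to 7.25 in FoxA1 arrays and from 6.93 to 7.13 in GFP arrays, all below background.

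The inhibitors showed no shared direction. CDKN1B was 9.95, 10.21, 10.22, 9.82, 10.27 and 10.08 in FoxA1 arrays 1 to 6, against 10.07, 9.70, 9.87, 10.26, 9.98 and 9.80 in GFP arrays 1 to 6. FoxA1 4 stood with the low GFP arrays and GFP 4 with the high FoxA1 arrays. FoxA1 minus GFP was 0.15 (standard error 0.11, 95% interval -0.08 to 0.37, limma, adjusted p = 1.00). A second CDKN1B probe, also above background on all arrays, gave 0.01 with a standard error of 0.10 (95% interval -0.20 to 0.21) in the fit on all probes. The second probe was higher in FoxA1 arrays for 5 of the 6 numbers and lower by 0.53 for number 1, and the difference between the probes was not tested.

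CDKN2A encodes both the INK4 inhibitor p16 and, from another first exon and reading frame, ARF, which protects p53 by binding MDM2. The annotation ties its 3 probes to different transcripts. The probe listed with the p16 transcript NM_000077 was above background on all arrays, at 8.17, 7.90, 7.98, 7.76, 8.19 and 8.05 in FoxA1 arrays 1 to 6, against 7.91, 7.99, 8.03, 8.01, 7.79 and 7.89 in GFP arrays 1 to 6. FoxA1 1, FoxA1 5 and FoxA1 6 were higher than any GFP array and FoxA1 4 lower than any, and FoxA1 minus GFP was 0.07 (standard error 0.09, limma, adjusted p = 1.00). The probe listed with the ARF transcript NM_058195 was above background on 10 arrays and differed by -0.02 (standard error 0.11). FoxA1 4 had its lowest value, 7.34, and FoxA1 1 its highest, 8.12. The third probe, listed with NM_058197, was above background on 0 arrays. Which transcripts each probe can bind beyond the one listed is not given in the sources used here.

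CDKN2D, the INK4 inhibitor p19, was 9.38, 9.37, 9.44, 9.71, 9.43 and 9.46 in FoxA1 arrays 1 to 6, against 9.10, 9.55, 9.58, 9.42, 9.53 and 9.78 in GFP arrays 1 to 6. GFP 1 was the lowest and GFP 6 the highest of all 12, so that the FoxA1 arrays lay inside the GFP range. The difference of -0.03 (standard error 0.10, limma, adjusted p = 1.00) became 0.04 with median centring and 0.03 without GFP 6. A second probe, listed with the other transcript NM_001800, was above background on 0 arrays.

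**Figure D3:**
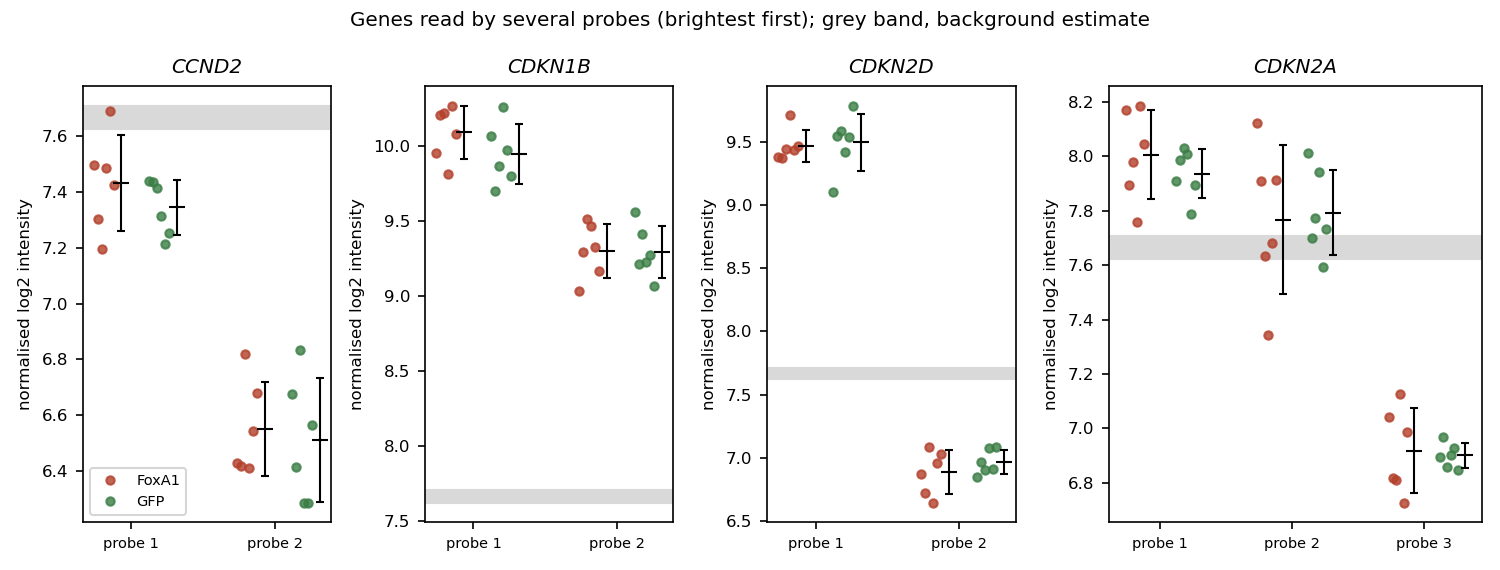
Normalised log2 intensity (y axis) of each probe of the 4 genes read by several probes (x axis, brightest first), FoxA1 arrays left of GFP arrays, with mean and SD (n = 6 each). The grey band covers the background estimates from 7.62 to 7.71; CDKN1B has 2 probes above it, while the last probes of CCND2, CDKN2D and CDKN2A lie below it.

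RB1, the pocket protein that the cyclin D kinases act on, had the largest difference of the 9 genes. It was 8.46, 8.72, 8.20, 8.18, 8.46 and 8.53 in FoxA1 arrays 1 to 6, against 8.45, 7.94, 7.89, 8.62, 8.21 and 8.15 in GFP arrays 1 to 6. The 2 lowest arrays were GFP 3 and GFP 2, and GFP 4 was higher than every FoxA1 array but FoxA1 2. RB1 averaged 8.42 ± 0.21 in FoxA1 arrays and 8.21 ± 0.28 in GFP arrays (SD, n = 6 each), which differed by 0.22 (standard error 0.13, 95% interval -0.06 to 0.49, limma, unadjusted p = 0.116, adjusted p = 1.00). The value ran from 0.15 without GFP 3 to 0.30 without GFP 4, where the unadjusted p was 0.0270 and the adjusted p 0.9998 (limma). That unadjusted p was the smallest of 22 alternative settings, and without GFP 4 304 of 12420 genes lay under 0.05 unadjusted.

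The spread within groups was next set against the replicate numbers, since the titles number both groups 1 to 6. An F-test of the number beside the group (limma, Benjamini-Hochberg adjustment) asks whether arrays of 1 number resembled each other across the plasmids. It called 314 of 12420 genes (2.53%) and 0 of the 9 G1 regulators. At an unadjusted p under 0.05, where 15.5% of all genes lay, CCND3 was the 1 regulator (limma, F = 4.10, unadjusted p = 0.0184, adjusted p = 0.211). CCND1 followed with F = 2.58 (limma, adjusted p = 0.375), and CDK4, CDKN1B, CDKN2A, RB1 and CCND2 had F below 1.

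Both D-type cyclins had the arrays of number 3 at an end of their range, in opposite directions. CCND1 averaged 12.92 over the 2 arrays of number 3, with averages of the other numbers between 12.36 and 12.63. CCND3 averaged 11.51 there, with the others between 11.82 and 12.18. For CCND1 the FoxA1 and GFP arrays of 1 number lay within 0.115 of each other for 5 of the 6 numbers, and number 4 was the exception with a gap of 0.60. Without number 4, 1 of 6 numbers left out in turn, both cyclins passed the F-test (limma, adjusted p = 0.0451 for CCND1 and 0.0288 for CCND3), and so did 13.6% of all genes. Without number 3 neither did (limma, unadjusted p = 0.599 for CCND1 and 0.271 for CCND3), and 0.862% of all genes passed.

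**Figure D4:**
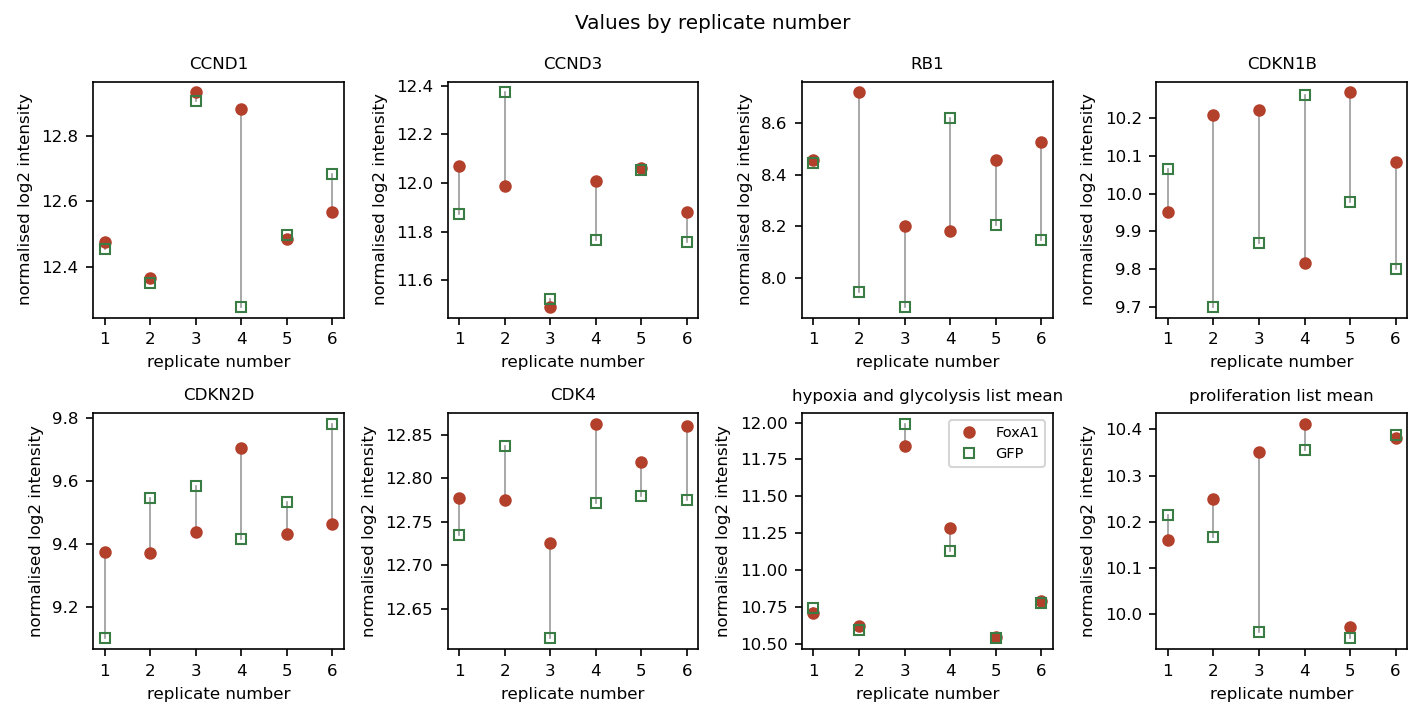
Normalised log2 intensity (y axis) against replicate number (x axis), filled circles for FoxA1 and open squares for GFP arrays, with a line joining arrays of the same number. CCND1 is high and CCND3 low at number 3, CCND1 splits at number 4, and the hypoxia and glycolysis list peaks at number 3 in both groups.

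The list of hypoxia and glycolysis genes also had its highest means on the arrays of number 3. All 14 measured genes of that list passed the F-test of the number, with PFKFB4, a regulator of glycolysis, at an adjusted p of 4.04e-06 (limma) and ANKRD37 at 0.000199. The list was chosen with earlier results of these data known, so this count describes the arrays and is no independent test. Their mean was 11.84 on FoxA1 3 and 11.99 on GFP 3, 11.29 on FoxA1 4 and 11.13 on GFP 4, and between 10.54 and 10.79 on the other arrays. Thus FoxA1 4 and GFP 4 were close in this list while they differed in CCND1. CCND3 was 12.01 on FoxA1 4 and 11.77 on GFP 4, both above its arrays of number 3. The part of the list in the cyclin values was not tested. Of the cell type markers, 2 of 8 luminal, 1 of 6 stromal, 0 of 2 basal and 0 of 3 leukocyte genes passed the F-test, beside 2.53% of all genes. They were HOXB13 and TMPRSS2 (limma, adjusted p = 0.00506 and 0.0474) and ACTA2 (0.000509), which was highest on FoxA1 2 (10.98) and GFP 2 (11.12). The mean luminal level ran from 10.8 to 11.3 in FoxA1 arrays and from 10.7 to 11.3 in GFP arrays, and that of all 7 stromal markers from 7.61 to 7.93 in FoxA1 arrays and from 7.63 to 7.95 in GFP arrays. Their part in the cyclin values was not tested. Between the groups 0 of the 14 hypoxia and glycolysis genes passed the test, with LDHA at 0.10 and ADM at -0.12.

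The genes most like the variable regulators over the 12 arrays were found by Pearson's r among the 12420 genes, for the 3 regulators with the largest SD. They are given as a description, since the arrays share groups and numbers and the genes were the extremes of many. CCND1 was most like LTBR (r = 0.99), GMEB2 (r = 0.98) and ALDH18A1 (r = 0.97), and most unlike CACYBP (r = -0.96). LTBR, the lymphotoxin beta receptor, was 11.86 on FoxA1 3, 11.83 on FoxA1 4 and 11.97 on GFP 3, above the other 9 arrays. CCND3 was most like UBE2G2 (r = 0.92), FBXL6 (r = 0.91) and SLC2A6 (r = 0.91) and most unlike LRATD2 (r = -0.93). RB1 was most like STEAP1 (r = 0.94), ARMC10 (r = 0.93) and SPRTN (r = 0.93) and most unlike MOK (r = -0.93). Spearman's rho of these 12 genes lay between 0.832 and 0.986 in size, and r between 0.83 and 0.99 when the 2 arrays farthest from the median of the regulator were left out.

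Other genes of the G1 to S pathway gave no call between the groups. Of the 12 measured genes of cyclin E, CDK2 and further inhibitors 0 passed the group test (limma, adjusted p under 0.05), 7 had a higher and 5 a lower mean in FoxA1 arrays, and the median difference was 0.04. Over all genes 53.8% had a higher mean and the median was 0.01, the background for this and the later sign counts. CDK2, the partner of cyclin E, differed by 0.20 and its activating phosphatase CDC25A by 0.21. These had the smallest p of the list (limma, unadjusted p = 0.109 and 0.137), and its differences ran from -0.11 to 0.21. CDKN1A, the CIP/KIP inhibitor p21 that p53 induces, was the 1 gene of this list past the F-test of the number (limma, adjusted p = 0.0315). It was 12.76, 12.58, 12.97, 12.74, 13.40 and 13.02 in FoxA1 arrays 1 to 6, against 12.67, 12.53, 12.95, 12.33, 13.31 and 13.18 in GFP arrays 1 to 6. Number 5 was highest in both groups, and the group difference was 0.08 (standard error 0.17).

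Of 15 measured pocket protein, E2F and partner genes 0 passed the group test, with 11 higher and 4 lower means and a median of 0.06. RBL2, the pocket protein p130 of quiescent cells, had 10.40 ± 0.26 in FoxA1 arrays and 10.06 ± 0.20 in GFP arrays (SD, n = 6 each), a difference of 0.34 (limma, unadjusted p = 0.0128, adjusted p = 1.00). E2F7, a repressor, differed by 0.18, and LIN52 by -0.26, the lowest value of this list. LIN52 and E2F2 had the smallest p of this list for the number (limma, unadjusted p = 0.0188 and 0.138), and 0 of the 15 passed it. Of 14 measured genes listed with the turnover of G1 cyclins and p27, 0 passed the group test, 11 had a higher and 3 a lower mean, and the median was 0.04. The cullins CUL4A and CUL4B differed by 0.15 and 0.10. KLHL20, whose part in that turnover was not tested here, and SKP2, the ligase subunit that recognises p27, had the smallest p for the number (limma, unadjusted p = 0.00157 and 0.00617) and did not pass it.

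Downstream of RB1, 0 of 19 measured E2F target genes passed the group test. In FoxA1 arrays 18 had a higher and 1 a lower mean, and the median was 0.10, beside 53.8% higher over all genes. CDC6 and MYBL2, both among the higher, had means of 7.55 and 7.44, below the background estimates of 7.62 to 7.71. The list mean was 10.59 ± 0.16 in FoxA1 and 10.47 ± 0.18 in GFP arrays (SD, n = 6 each). It was lowest on GFP 5 (10.257), GFP 3 (10.286) and FoxA1 5 (10.295) and highest on FoxA1 4 (10.781) and GFP 6 (10.753). The genes of this list and the next share the same arrays, so their signs are not independent observations. RRM1 differed by 0.13 and MCM4 by 0.24, while CDT1 and TK1 had the smallest p for the number (limma, unadjusted p = 0.00583 and 0.00758). Of 18 proliferation genes 0 passed the group test, 14 had a higher and 4 a lower mean, and the median was 0.08. The checkpoint kinase BUB1B differed by 0.37 (limma, unadjusted p = 0.0236, adjusted p = 1.00) and TPX2 by 0.24, and AURKB was the 1 gene of this list past the F-test of the number (limma, adjusted p = 0.0399), with TOP2A next. The list mean was 9.97 on FoxA1 5, against 9.96 on GFP 3 and 9.95 on GFP 5, and from 10.16 to 10.41 on the other arrays.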

How the data were processed

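Per the labels, biotinylated cRNA of 12 arrays was read; the authors deposited log2 intensities in both forms, non-normalized (48107 probes) and normalized (47323 probes). The normalized table kept the rank order of the other and lay within 0.0669 of its quantile normalization; no source used here names the authors' program. It was the table used. Probes lacking any value (6) were dropped, probes whose mean lay above the median were kept, and the brightest probe stood for each gene, which left 12420 genes. Groups and replicate numbers come from titles.

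Differences are FoxA1 minus GFP, fitted with limma 3.58.1 in R 4.3.3 (lmFit, eBayes, two-sided, adjustment over all genes, threshold 0.05). The replicate number was tested by limma's F-test with group in the model. Both fits were tested on simulated data, in which the F-test of the number missed small changes. The noise there was drawn independently for each gene, while 41.2% of the spread within groups here lay along the leading component. The simulation therefore cannot say how small a change either test would find on these arrays. Precision is limited by the number of arrays, with a 95% interval of ± 0.22 for the median gene. Alternatives covered normalization, filter, probe choice, array weights, variance trend, the replicate block and arrays left out. Named were all regulators, FOXA1, up to 4 genes of each list by smallest p, markers above background on all arrays or on none, and the genes most like 3 regulators. The members and lists were chosen with earlier results of these data known.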

Additional observations from a re-analysis of the deposited data

Results flagged for a closer look

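In a test of the gap between an array and its nearest neighbour relative to the range of its group, 5 of 50 groups of 6 arrays stood out, where chance gives about 1 in 20 groups. The groups share arrays and are not independent, so the count cannot show an excess over that rate. CCND3 was lowest on FoxA1 3 (11.49, nearest 11.88, gap ratio 0.673), and CDKN2D was highest on FoxA1 4 (9.71, nearest 9.46, gap ratio 0.728). GFP 3 was lowest in the mean of the cyclin E, CDK2 and further inhibitor genes (10.22, nearest 10.39, gap ratio 0.686) and of the pocket protein and E2F genes (8.77, nearest 8.91, gap ratio 0.638). GFP 6 was highest in the mean of the 2 measured basal markers, CAV1 and SERPINB5 (8.01, nearest 7.73, gap ratio 0.677).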

How the results depend on the processing

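No setting called a gene or a regulator between FoxA1 and GFP arrays (limma, 22 alternatives each, 0 calls). Under an unadjusted p of 0.05 (limma) lay from 79 of 7793 genes, with the filter at the upper quartile, to 1502 of 47317 probes, with all probes. Signs held in all 22 for CCND1, CCND2, CDK4, CDK6, CDKN1B, CDKN2A, RB1 and FOXA1. The filter, all-probe, variance trend and replicate block settings could not turn a sign, since they left each gene's difference as it was. Except for CDKN1B and CDKN2A, so did a mean over probes. The difference for CCND3 turned to -0.00064 with array weights, and with single arrays left out it ran from -0.048 to 0.12. The difference for CDKN2D turned to 0.040 with median centring, under which the median gene stood at 0.04, and with single arrays left out it ran from -0.11 to 0.029. With single arrays left out the differences ran from 0.03 to 0.17 for CCND1, 0.04 to 0.14 for CCND2, 0.02 to 0.07 for CDK4, -0.17 to -0.05 for CDK6, 0.10 to 0.21 for CDKN1B, 0.03 to 0.12 for CDKN2A and 0.07 to 0.16 for FOXA1. A mean over probes gave 0.08 for CDKN1B and 0.02 for CDKN2A. The F-test of the number called 115 genes with median centring, 1014 with array weights and from 92 (without number 5) to 1692 (without number 4) with a number left out; it called 0 to 2 regulators. The causes were not tested. Same-numbered arrays correlated in their deviations over 12420 genes at 0.20, 0.27, 0.53, -0.27, 0.64 and 0.25 for numbers 1 to 6, so the numbers were not taken to pair the arrays; with the replicate block 0 genes passed and 335 lay under an unadjusted p of 0.05, and only the arrays of numbers 3 and 5 correlated best with their own number.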
